A study of Mus musculus with 8 samples.

Results

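The 10 genes of the BCL2 family of apoptosis regulators were described by name in hearts lacking Elmsan1 in cardiomyocytes: Bax, Bak1, Bcl2, Bcl2l1, Mcl1, Bcl2l11, Bid, Bad, Bbc3 and Bcl2l13. They were matched by gene symbol, and all 10 of 10 were found among the 45706 genes of the table and among the 15289 genes with enough reads to be tested. RNA sequencing was done on whole hearts of male mice aged 8 weeks, and the title of the series sets the work in the study of cardiac function and lifespan after loss of Elmsan1. The conditional knockout group (cKO, n = 4) had the genotype Elmsan1 fl/fl;aMHC-Cre+/-, that is, floxed Elmsan1 alleles and a Cre recombinase under the αMHC (Myh6) promoter of cardiomyocytes. The controls carried either the floxed alleles alone (floxed group, genotype Elmsan1 fl/fl, n = 2) or the Cre transgene alone (Cre group, genotype aMHC-Cre+/-, n = 2), so that cKO shared its alleles with the first and its recombinase with the second. The sources used here give neither the strain nor the floxed exons nor the origin of the transgene. Since a heart holds many cell types that do not carry an active Cre, each value is a sum over deleted and undeleted cells, and fewer cells of a type and less RNA per cell cannot be told apart.

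The BCL2 family decides whether mitochondria release cytochrome c, the step that commits a cell to the intrinsic pathway of apoptosis. The effectors Bax and Bak1 form pores in the mitochondrial outer membrane, the guardians Bcl2, Bcl2l1 and Mcl1 bind and restrain them, and the BH3-only proteins Bcl2l11, Bid, Bad and Bbc3 relay stress signals by activating the effectors or occupying the guardians. Adult cardiomyocytes rarely divide, and the balance of these proteins is studied there for cell loss after ischaemia and in heart failure. Their activity is set largely by protein turnover, phosphorylation and location, none of which RNA levels show.

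Each library held between 17509564 and 25833259 estimated counts. Elmsan1 itself was at 14.5 ± 1.68 CPM (counts scaled by library size, mean ± SD, n = 4) in cKO against 26.8 ± 1.62 CPM in the 4 control hearts. Every cKO heart was below every control heart, which fits the labels but also held for 25.9% of all tested genes. All 8 libraries held the cardiomyocyte markers at high levels, with a sum over 8 genes of 43975 to 52511 CPM in cKO and 50543 to 54152 CPM in controls, and 2 of these genes were called higher and 3 lower. The summed macrophage markers were higher in every cKO heart (230 to 293 against 147 to 177 CPM, with 6 of 8 markers called higher), as were the endothelial markers (984 to 1173 against 830 to 911 CPM, with 4 of 8 called higher and 1 lower) and the fibroblast markers (978 to 1261 against 717 to 969 CPM, with 2 of 8 called higher). Sums overlapped for smooth muscle and pericyte markers (574 to 982 against 655 to 745 CPM), lymphocyte markers (11.2 to 15.5 against 7.24 to 16.7 CPM), neutrophil markers (1.84 to 5.22 against 0.942 to 2.51 CPM) and erythroid markers (509.7 to 1348 against 500.0 to 776 CPM), of which 1 neutrophil marker was called higher. With an offset for length and GC content, 0 cardiomyocyte markers were called higher and 4 lower, and 4 macrophage, 5 endothelial and 3 fibroblast markers were called higher. So were 1 lymphocyte and 1 neutrophil marker, where 20.9% of all genes were called higher and 24.1% lower. None of the listed markers was at 0 in all libraries, and their part in the results that follow was not tested. On the first principal component, cKO replicate 1 lay nearest to the controls (-18.2 against -42.9 to -70.9 in the other cKO hearts and 37.3 to 51.9 in controls). The labels do not say that each heart came from a separate litter or day, and p-values measure only the spread between these samples.

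The main comparison weighed the cKO group against both control genotypes equally and asked which family members differ after loss of Elmsan1. With edgeR's quasi-likelihood test, Benjamini-Hochberg adjusted over all genes, at an adjusted p under 0.05, Bax, Bad and Bbc3 rose, Bcl2l13, Bcl2l11 and Mcl1 fell, and Bak1, Bcl2l1, Bcl2 and Bid were not called. These 6 calls among 10 members stand beside 52.1% of all tested genes called, 25.6% higher and 26.5% lower, so that a call in this comparison is common across the transcriptome. The median log2 fold change of the 10 members was 0.05, and that of all tested genes 0.04. The levels of the 4 cKO hearts lay wholly above those of the 4 controls for 3 members and wholly below for 3 members, where 23.4% and 25.9% of all genes did so and 49.3% did either. By role, the effector Bax and the BH3-only genes Bad and Bbc3 rose, and the BH3-only gene Bcl2l11, the guardian Mcl1 and the mitophagy receptor Bcl2l13 fell.

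**Figure D1:**
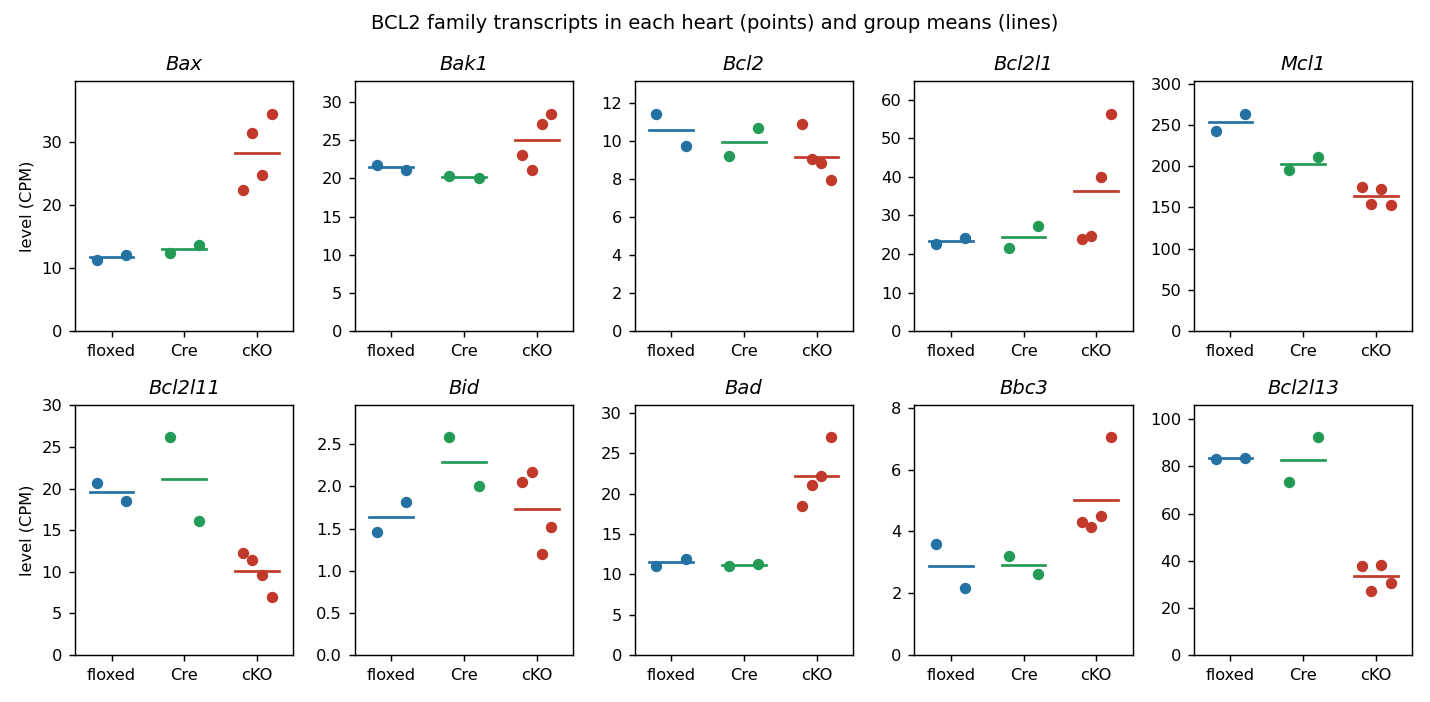
Level of each of the 10 members in CPM on the vertical axis (each panel from 0) in floxed (n = 2), Cre (n = 2) and cKO (n = 4) hearts, with points for hearts and lines for group means. Bax, Bad and Bbc3 lie above, and Bcl2l13, Bcl2l11 and Mcl1 below, the whole control range in all 4 cKO hearts.

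Among the effectors, Bax (ENSMUSG00000003873, GRCm38 chr7:45461697-45466898, minus strand) moved most. Bax, whose protein shifts from the cytosol to mitochondria and forms pores there, was at 22.5, 31.5, 24.9 and 34.6 CPM in cKO replicates 1 to 4, at 11.4 and 12.1 CPM in the floxed hearts and at 12.5 and 13.7 CPM in the Cre hearts. The lowest cKO heart was above the highest control, and cKO replicates 2 and 4 were the highest. Bax rose 2.29-fold (log2 1.20, SE 0.14), with an edgeR adjusted p of 6.78e-05. The 1100 bases of its longest annotated transcript make Bax the shortest member, and after correction for length and base composition (an offset per library) the rise came to 0.45 on the log2 scale (adjusted p = 0.0100). A predicted gene model on the same strand shares 192 exonic bases with Bax, so reads from there could have been assigned elsewhere.

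Promoter sequence is shown for Bax, Bcl2l11, Bbc3 and Bcl2l13, the called members in whose windows any of 3 short motifs was found, so that the sequence around their starts can be read beside their values. All 10 members matched the RefSeq promoter table (GRCm38.p6), with 16 windows in all, each from 250 bases before to 50 bases after an annotated start. Each window is written 5′ to 3′ on the strand of the gene, with the motif in capitals, and positions give the first base of the match counted from the start site, with -1 just before it. The motifs, each searched on both strands with the reverse complement included, were the forkhead motif GTAAACA, the E-box CACGTG and TGACGT, the core of the cyclic AMP response element, which do not overlap in these windows. They occur in 3.65%, 7.15% and 7.51% of the 32851 promoters of the table. A match is a description of letters and not evidence of binding. Bax held the E-box at positions -9 and 36. The forkhead motif lay at -227 in the Bcl2l11 window and at -167 in the Bbc3 window, and the TGACGT core, read on either strand, at -33 in the Bcl2l13 window.
Bax, chr7:45466849-45467148, minus strand: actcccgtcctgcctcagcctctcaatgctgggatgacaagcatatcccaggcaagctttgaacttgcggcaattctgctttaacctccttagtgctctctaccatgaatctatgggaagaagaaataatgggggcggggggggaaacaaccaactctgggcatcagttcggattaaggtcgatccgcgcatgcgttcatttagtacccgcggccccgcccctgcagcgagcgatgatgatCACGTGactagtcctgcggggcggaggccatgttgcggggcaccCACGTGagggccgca
Bcl2l11, chr2:128125788-128126087, plus strand: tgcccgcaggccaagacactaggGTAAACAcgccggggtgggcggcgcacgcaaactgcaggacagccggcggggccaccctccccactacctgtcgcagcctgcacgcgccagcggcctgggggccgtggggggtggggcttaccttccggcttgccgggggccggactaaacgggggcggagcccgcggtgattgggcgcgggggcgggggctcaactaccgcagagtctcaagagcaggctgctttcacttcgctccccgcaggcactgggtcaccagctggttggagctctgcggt
Bbc3, chr7:16310011-16310310, plus strand: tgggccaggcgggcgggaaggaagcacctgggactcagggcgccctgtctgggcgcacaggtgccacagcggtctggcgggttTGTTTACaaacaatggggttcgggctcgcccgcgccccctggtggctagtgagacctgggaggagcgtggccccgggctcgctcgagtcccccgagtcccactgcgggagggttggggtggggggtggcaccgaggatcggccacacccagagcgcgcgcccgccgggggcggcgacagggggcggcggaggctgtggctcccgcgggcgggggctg
Bcl2l13, chr6:120835980-120836279, plus strand: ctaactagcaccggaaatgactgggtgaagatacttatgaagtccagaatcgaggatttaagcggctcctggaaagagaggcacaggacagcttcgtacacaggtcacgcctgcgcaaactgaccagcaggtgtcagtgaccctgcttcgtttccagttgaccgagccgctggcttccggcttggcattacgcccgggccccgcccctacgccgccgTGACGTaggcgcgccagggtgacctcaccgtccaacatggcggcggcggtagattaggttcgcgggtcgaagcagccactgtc
Another Bbc3 window, starting at 16310181, held the E-box at -64, and the Bcl2 window held that core at -107. The windows of Bak1, Bcl2l1, Mcl1, Bid and Bad held none of the 3 motifs, which says only that these letters are not in those windows.

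Bak1 (ENSMUSG00000057789, chr17:27019810-27029009, minus strand), the effector that resides in the mitochondrial outer membrane, was at 23.1, 21.1, 27.2 and 28.5 CPM in cKO, 21.8 and 21.1 CPM in floxed and 20.4 and 20.0 CPM in Cre hearts. The groups overlapped through cKO replicate 2, which lay below floxed replicate 1. The log2 fold change was 0.26 (SE 0.11) and missed the threshold (edgeR adjusted p = 0.0614). Without cKO replicate 2 it was 0.34 (adjusted p = 0.0184), and with the length and GC offset its sign turned, at -0.06 (adjusted p = 0.615). Over the alternatives the adjusted p ran from 0.0145 to 0.615. Ggnbp1, on the opposite strand, shares up to 437 exonic bases with Bak1 and rose (50.1 ± 11.5 against 26.5 ± 0.792 CPM, log2 0.92, SE 0.15, adjusted p = 0.00046). No source used here gives the strand setting of the counting, so reads from that overlap cannot be assigned to 1 of the genes with certainty.

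Of the guardians among the members, Mcl1 was the most abundant per length and the only one called lower. Mcl1 (ENSMUSG00000038612, chr3:95658788-95663176, plus strand) encodes a short-lived guardian that mouse cardiomyocytes need for survival and normal mitochondria. It was at 174, 154, 173 and 153 CPM in cKO, 242 and 264 CPM in floxed and 195 and 211 CPM in Cre hearts. The 3 groups did not overlap, with floxed highest and cKO lowest. Mcl1 fell 1.39-fold (log2 -0.47, SE 0.09), with an edgeR adjusted p of 0.0012.

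Bcl2l1 (ENSMUSG00000007659, chr2:152780668-152831728, minus strand) encodes BCL-XL and, by alternative splicing, a short pro-apoptotic form that a count per gene does not separate. It was at 23.8, 24.7, 39.99 and 56.4 CPM in cKO, 22.7 and 24.2 CPM in floxed and 21.6 and 27.2 CPM in Cre hearts. Only cKO replicates 3 and 4 lay above all controls, and the other 2 lay within the control range. The log2 fold change of 0.60 (SE 0.29) was not called (edgeR adjusted p = 0.117). It was 0.31 without cKO replicate 4 and 0.75 without cKO replicate 1, where it was called (adjusted p = 0.0438), and over the alternatives the adjusted p ran from 0.0248 to 0.889.

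Bcl2 (ENSMUSG00000057329, chr1:106538178-106714274, minus strand), the founding guardian, was at 10.9, 9.04, 8.82 and 7.96 CPM in cKO, 11.4 and 9.73 CPM in floxed and 9.19 and 10.7 CPM in Cre hearts. The groups overlapped. The log2 fold change was -0.16 (SE 0.13, edgeR adjusted p = 0.318), with the length and GC offset it was 0.27 (adjusted p = 0.0661), and over the alternatives the adjusted p ran from 0.0661 to 0.864. The sign for Bcl2 therefore turned with that offset, and Bcl2 was called under none of the alternatives in this comparison.

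The BH3-only genes moved in both directions. Bad (ENSMUSG00000024959, chr19:6941861-6951899, plus strand), which binds BCL-XL and BCL2 and is switched off by phosphorylation, was at 18.5, 21.1, 22.2 and 26.96 CPM in cKO, 11.05 and 11.9 CPM in floxed and 10.97 and 11.2 CPM in Cre hearts. The controls lay close together and every cKO heart was above them. Bad rose 1.97-fold, with a log2 fold change of 0.98 (SE 0.12, edgeR adjusted p = 0.000103), and with the length and GC offset the value was 0.48 (adjusted p = 0.00255). Gpr137, on the opposite strand, shares 524 exonic bases with Bad and differed less (log2 0.33, SE 0.12, adjusted p = 0.0364).

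Bbc3 (ENSMUSG00000002083, chr7:16308393-16318205, plus strand) encodes PUMA, a strong activator of apoptosis downstream of p53. It was at 4.31, 4.15, 4.50 and 7.05 CPM in cKO, 3.60 and 2.16 CPM in floxed and 3.19 and 2.61 CPM in Cre hearts, resting on 44 to 185 estimated counts per library. All cKO hearts lay above all controls, 3 of them close together and replicate 4 apart. Bbc3 rose 1.73-fold (log2 0.79, SE 0.23), with an edgeR adjusted p of 0.0142. The call ended without floxed replicate 2 (log2 0.62, adjusted p = 0.0672), without Cre replicate 2 (log2 0.70, adjusted p = 0.0554) and with the length and GC offset (log2 0.29, adjusted p = 0.265), the last being the highest p of any alternative and 0.0040 the lowest.

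Bcl2l11 (ENSMUSG00000027381, chr2:128126038-128162547, plus strand) encodes BIM, an activator that binds all guardians and is a known target of forkhead factors in several cell types. It was at 12.2, 11.5, 9.59 and 6.97 CPM in cKO, 20.7 and 18.5 CPM in floxed and 26.2 and 16.1 CPM in Cre hearts. Every cKO heart lay below every control, replicate 4 lowest, and the Cre hearts were farther apart than the floxed hearts. Bcl2l11 fell 2.03-fold (log2 -1.02, SE 0.20, edgeR adjusted p = 0.00175).

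Bid (ENSMUSG00000004446, chr6:120891930-120916853, minus strand) links death receptors to mitochondria once caspase-8 has cleaved its protein. It was the least abundant member, at 2.05, 2.17, 1.20 and 1.52 CPM in cKO, 1.46 and 1.82 CPM in floxed and 2.58 and 2.00 CPM in Cre hearts, from 27.7 to 68.1 estimated counts. The groups overlapped, and the log2 fold change of -0.17 (SE 0.26, edgeR adjusted p = 0.612) was smaller than its SE. A difference of that size was not resolved, and no limit of detection was worked out for this depth and spread between hearts. Bid and Bcl2l13 lie tail to tail on opposite strands of chromosome 6 and share 628 exonic bases, so some reads of the far more abundant Bcl2l13 could have been counted for Bid.

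Bcl2l13 had the largest fall of the members. Bcl2l13 (ENSMUSG00000009112, chr6:120836212-120892842, plus strand) encodes an outer membrane protein that acts as a receptor for mitophagy, the removal of mitochondria by autophagy. It was at 37.7, 27.3, 38.0 and 30.4 CPM in cKO, 83.3 and 83.6 CPM in floxed and 73.5 and 92.3 CPM in Cre hearts. No cKO heart came near the controls. It fell 2.49-fold (log2 -1.32, SE 0.12, edgeR adjusted p = 2.69e-05), and with the length and GC offset by 0.96 on the log2 scale (adjusted p = 0.000106).

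Levels were set per kilobase of exon, so that different genes could be compared. The length was that of all annotated exons of a gene together. It can differ from the longest transcript, with 1576 against 1100 bases for Bax and 4586 against 2568 for Bcl2l1. The ranks rest on that choice and are not corrected for the length trend described further on. Mcl1 led in both conditions with 66.7 ± 9.03 CPM per kilobase in controls and 47.8 ± 3.46 in cKO (n = 4 each). In controls Bcl2l13 (9.15 ± 0.847), Bak1 (8.65 ± 0.324) and Bax (7.87 ± 0.618) followed in CPM per kilobase, and the ranges of Bcl2l13 and Bak1 and of Bak1 and Bax overlapped. Then came Bcl2l1 (5.22 ± 0.523), Bad (4.42 ± 0.172), Bcl2l11 (2.53 ± 0.536), Bbc3 (1.36 ± 0.298), Bcl2 (1.12 ± 0.109) and Bid (0.554 ± 0.132), of which only the neighbours Bbc3 and Bcl2 overlapped. In cKO Bax took rank 2 at 18.0 ± 3.57 CPM per kilobase, clear of Bak1 at 10.4 ± 1.43. Bad (8.67 ± 1.39) and Bcl2l1 (7.90 ± 3.35) came next, and Bak1 overlapped Bad, and Bad overlapped Bcl2l1. Bcl2l13 took rank 6 at 3.67 ± 0.589 CPM per kilobase and overlapped Bbc3 (2.35 ± 0.645). Bcl2l11 (1.25 ± 0.291) overlapped Bcl2 (1.00 ± 0.135), and Bid was last again (0.489 ± 0.129).

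**Figure D2:**
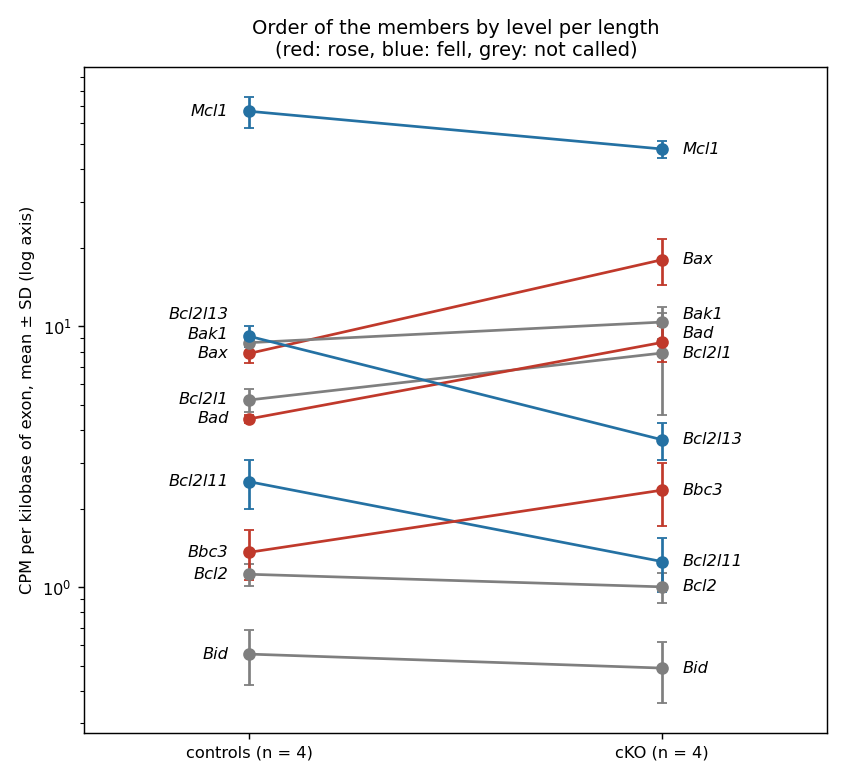
Level of each member per kilobase of exon (CPM per kilobase, log axis, mean ± SD) in controls (n = 4) and cKO (n = 4), with a line joining the means of each gene, red for members that rose, blue for those that fell and grey for those not called. Mcl1 is highest on both sides, Bax moves from rank 4 to rank 2 and Bcl2l13 from rank 2 to rank 6. These ranks rest on the length of all annotated exons together.

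The ratio of Bax to Bcl2, often read as a balance of effector and guardian, was formed from levels per length as a description. It was 12.0, 20.3, 16.4 and 25.2 in the cKO hearts, 5.77 and 7.22 in the floxed hearts and 7.90 and 7.45 in the Cre hearts. Every cKO ratio exceeded every control ratio. The ratio sets the shortest member over the longest and is not corrected for the length trend described further on, and with the length and GC offset Bax was at 0.45 and Bcl2 at 0.27 on the log2 scale. Bax made up 63.1 ± 5.10% of the summed Bax and Bak1 level per length in cKO and 47.6 ± 2.84% in controls. Among the 3 guardians of the members, Mcl1 made up 84.4 ± 5.22% in cKO and 91.2 ± 1.20% in controls, and Bcl2l1 13.8 ± 5.46% and 7.22 ± 1.07%. Bcl2l2, a guardian outside the members, was not part of that sum. The guardian shares moved most in cKO replicate 4, where Mcl1 was at 77.2% and Bcl2l1 at 21.3%.

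Both control genotypes were also compared with cKO one at a time, which asks whether a difference holds against hearts with the same floxed alleles and against hearts with the same transgene. The 2 comparisons share the cKO hearts, so their values are given side by side and not as separate evidence. Against floxed hearts 42.9% of all genes were called and against Cre hearts 42.4%, and without floxed replicate 1 or 2 the former count was 3600 or 3624 in place of 6559, and without Cre replicate 2 the latter was 3929 in place of 6484. The same 6 members were called in both, in the directions of the main comparison. The log2 fold change of Bax was 1.28 against floxed and 1.12 against Cre (edgeR adjusted p = 0.000355 and 0.00069), that of Bad 0.95 and 1.00 (adjusted p = 0.000803 and 0.00065), and that of Bcl2l13 -1.32 and -1.31 (adjusted p = 0.000113 and 0.000156).

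The other 3 calls depended on single libraries, those of Bcl2l11 and Bbc3 in both comparisons and that of Mcl1 in the comparison with Cre. Bcl2l11 fell by 0.97 against floxed and 1.08 against Cre on the log2 scale (edgeR adjusted p = 0.0081 and 0.00442), with no call against floxed without floxed replicate 1 (log2 -0.89, adjusted p = 0.0694) or against Cre without Cre replicate 1 (log2 -0.68, adjusted p = 0.0723). Bbc3 was 0.79 on the log2 scale against either group (adjusted p = 0.047 and 0.0485), and both calls ended without cKO replicate 3 or 4, floxed replicate 2 or either Cre replicate (log2 0.47 to 0.85 and adjusted p = 0.0567 to 0.354 against floxed, log2 0.57 to 0.95 and 0.0520 to 0.264 against Cre). Mcl1 was at a log2 fold change of -0.63 against floxed (adjusted p = 0.000946) and -0.31 against Cre (adjusted p = 0.0371). The second Mcl1 call held without cKO replicate 1 or floxed replicate 2 and ended without any other library (log2 -0.28 to -0.37, adjusted p = 0.0520 to 0.174). It also ended under upper-quartile scaling (log2 -0.22, adjusted p = 0.114), library size alone (log2 -0.20, adjusted p = 0.248) and a fit of the cKO and Cre hearts alone (log2 -0.31, adjusted p = 0.0643). With the length and GC offset, 3 members and 34.4% of all genes were called against Cre, and Bax (log2 0.30, adjusted p = 0.143), Mcl1 (log2 -0.19, adjusted p = 0.165) and Bbc3 (log2 0.19, adjusted p = 0.602) were not.

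Cre against floxed hearts, which also tests the difference between those comparisons, called 0 of the 10 members and 15 genes in all (0.0981%). At an unadjusted p under 0.05 there were 1 member and 526 genes. The member was Mcl1, at 203 ± 11.4 CPM in Cre and 253 ± 15.1 CPM in floxed hearts (n = 2 each, log2 -0.32, SE 0.13, unadjusted p = 0.0283 by edgeR, adjusted p = 1). DESeq2 called 0 members and 57 genes.

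**Figure D3:**
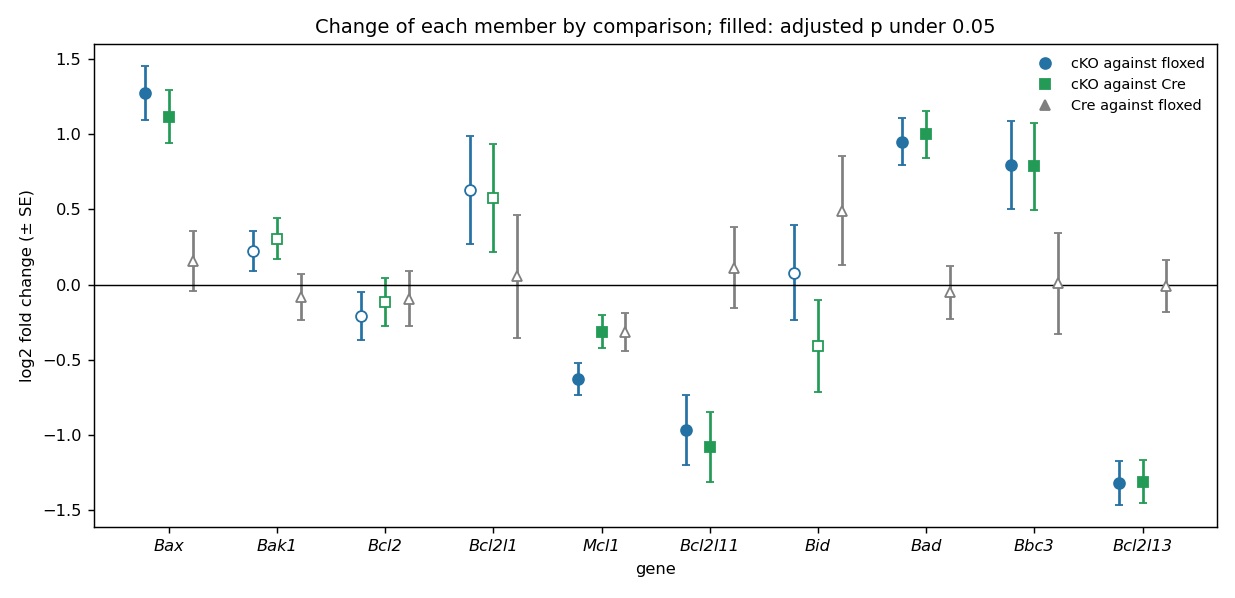
Log2 fold change (± SE) of each member for cKO against floxed (circles), cKO against Cre (squares) and Cre against floxed (triangles), with filled symbols for an adjusted p under 0.05. The circles and squares of the called members lie on the same side of 0, and every triangle is open.

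The direction of the called members followed the order of their lengths. The 3 members with the shortest longest transcript, Bax (1100 bases), Bad (1533) and Bbc3 (1814), were those that rose, while Mcl1 (3418), Bcl2l11 (5036) and Bcl2l13 (6925) fell. Bak1 (2387), Bid (2415) and Bcl2l1 (2568), in the middle, and Bcl2, the longest at 7191 bases, were not called. Across all tested genes the median log2 fold change also went down with length, from 0.75 for the 950 genes under 1 kb through 0.38 at 1 to 2 kb, 0.05 at 2 to 4 kb and -0.20 at 4 to 8 kb to -0.39 for the 831 genes over 8 kb. In the class of 1 to 2 kb, which holds Bax, Bad and Bbc3, 41.7% of genes were called higher and 8.22% lower, and in the class of 4 to 8 kb, which holds Bcl2l11, Bcl2l13 and Bcl2, 14.7% were called higher and 40.0% lower. An offset fitted in each library as a smooth function of length and GC content left 5 members called, Bax and Bad higher and Mcl1, Bcl2l11 and Bcl2l13 lower, where 45.1% of all genes were called. Under it the fold changes of the called members were smaller in size, with Bcl2l13 at -0.96 and Bcl2l11 at -0.77 (adjusted p = 0.00611) on the log2 scale. The source of the length trend was not tested.

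**Figure D4:**
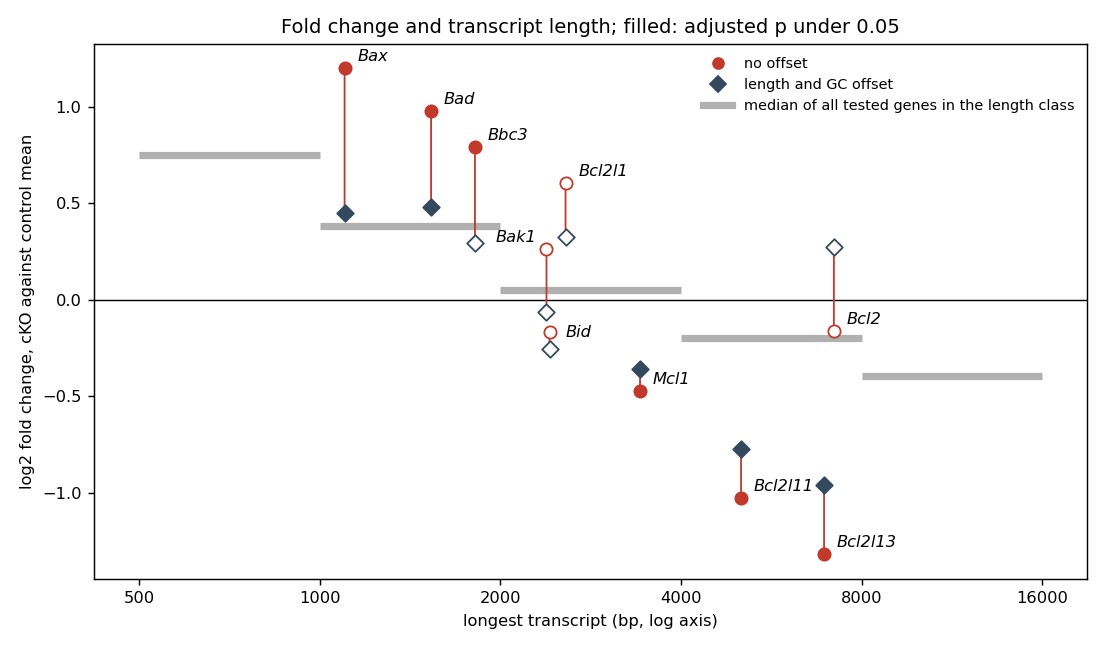
Log2 fold change of cKO against the control mean plotted against the length of the longest transcript (bases, log axis) for the 10 members without an offset (circles) and with the length and GC offset (diamonds), filled where the adjusted p is under 0.05, with grey bars at the median of all genes in each length class. The bars step down from 0.75 to -0.39, and the members that rose lie at the short end.

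The likeness of patterns over the 8 libraries was measured as Pearson's r of log2 CPM among 8085 genes with a mean of at least 10 CPM. For Bax the highest values were 0.999 for Ndufc1, a subunit of respiratory complex I, 0.998 for Selenow, a selenoprotein, and 0.998 for Ubl5, a ubiquitin-like protein. For Bcl2 they were 0.980 for Tmem181a, 0.953 for Papln and 0.949 for Rbm4, an RNA-binding protein. For Mcl1 they were 0.984 for Pisd, which makes phosphatidylethanolamine in mitochondria, 0.981 for Spry4, an inhibitor of growth factor signalling, and 0.980 for Bhlhe40, a transcriptional repressor. These values include the difference between the genotypes and are a description over 8 libraries.

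Other genes of the pathway were taken as lists and read against the same 25.6% higher and 26.5% lower. Of 15 further BCL2 family genes 10 were tested. Bok, an effector relative, rose (log2 1.05, SE 0.17), as did the BH3-only genes Bik (0.79) and Bmf (0.64) and the family member Bcl2l12 (0.46), while the guardian Bcl2l2, which encodes BCL-W, fell. Bcl2l2 averaged 24.9 ± 5.97 CPM with the deletion and 56.7 ± 2.88 CPM without (log2 -1.19, edgeR adjusted p = 0.000143). The median log2 fold change of the list was 0.21, and with the length and GC offset 2 rose and 1 fell, with Bik (log2 0.17, adjusted p = 0.423) and Bcl2l12 (log2 0.01, adjusted p = 0.973) no longer called. Of all genes, 20.9% were called higher and 24.1% lower with that offset.

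Of 11 genes listed under the apoptosome and caspases, which include genes that do not act downstream of cytochrome c, 3 rose and 3 fell. The median was -0.02, or 0.09 and 0.11 under upper-quartile scaling and library size alone. Dffb, the nuclease that cuts DNA during apoptosis, rose most (log2 1.43, 9.80 ± 3.33 against 3.66 ± 0.571 CPM), and its inhibitor and chaperone Dffa fell (log2 -0.63, 17.3 ± 4.11 against 26.6 ± 2.99 CPM). Endog, a mitochondrial nuclease, rose by 0.89 and the initiator Casp8 by 0.58 on the log2 scale, while the initiator Casp9 (log2 -0.76) and Aifm1, a flavoprotein of the mitochondrial intermembrane space (log2 -0.93), fell. The Endog call ended with the offset (log2 0.16, edgeR adjusted p = 0.123). Among 9 inhibitors of apoptosis and their antagonists, Xaf1, an antagonist of XIAP, rose (log2 1.11) and so did Septin4 (log2 0.56), while Birc6 was called lower (log2 -0.34, adjusted p = 0.0205), with a median of 0.18 for the list. Birc6 was not called without cKO replicate 3, floxed replicate 1 or Cre replicate 2 (log2 -0.29 to -0.35, adjusted p = 0.0584 to 0.0695) and was at 0.09 with the offset (adjusted p = 0.405). Under the same offset, further inhibitors of this list were called higher and an antagonist was called lower.

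The death receptor pathway, which reaches mitochondria through Bid, had 6 of 10 tested genes higher and 2 lower, with a median of 0.40. Tradd, the adaptor of the TNF receptor, rose by 0.94, the necroptosis kinase Ripk3 by 0.93 and the receptor Tnfrsf1a by 0.39 on the log2 scale, while the adaptor Fadd (log2 -0.51) and the caspase-8 regulator Cflar (log2 -0.23) fell. The other rises, chosen for naming after their values were seen, were those of Fas (log2 1.05), Mlkl (0.74) and Ripk1 (0.41). Levels were low for Tradd (6.09 ± 1.24 against 3.16 ± 0.568 CPM) and Ripk3 (3.41 ± 0.616 against 1.78 ± 0.159 CPM). The call of Fas ended without any 1 of the 4 control hearts (log2 1.00 to 1.08, edgeR adjusted p = 0.0654 to 0.0897) and that of Mlkl without cKO replicate 3, floxed replicate 1 or Cre replicate 1 (log2 0.60 to 0.65, adjusted p = 0.0511 to 0.0775). The Cflar call held without cKO replicate 1 or Cre replicate 1 and ended without any other library (log2 -0.19 to -0.25, adjusted p = 0.0638 to 0.0969), and with the offset Cflar was at 0.18 (adjusted p = 0.0628) and Tnfrsf1a at 0.06 (adjusted p = 0.566). The macrophage, endothelial and fibroblast marker sums were also higher in cKO, and their part in these rises was not tested.

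Of 9 tested genes listed as transcription regulators of the BCL2 family, Trp53 (log2 0.48), Ddit3 (1.11), which encodes the stress factor CHOP, and E2f1 (1.29) rose. Jun (-1.71), Foxo3 (-0.89), Stat3 (-0.61) and Foxo1 (-0.32) fell. Trp53, which encodes p53, averaged 22.4 ± 1.61 CPM with the deletion and 16.1 ± 0.768 CPM without (edgeR adjusted p = 0.0016), and Foxo3, a forkhead factor, at 54.1 ± 6.91 and 101 ± 18.5 CPM (adjusted p = 0.000143). Jun was at 61.7, 60.3, 56.4 and 46.7 CPM in cKO, 337 and 377 CPM in floxed and 84.9 and 105 CPM in Cre hearts. The 3 groups did not overlap for Jun, with floxed highest, and the difference between Cre and floxed was itself called (log2 -1.91, adjusted p = 0.000622). The Foxo1 call ended without cKO replicate 2, either floxed replicate or either Cre replicate (log2 -0.24 to -0.34, adjusted p = 0.0535 to 0.0775), and Foxo1 was at 0.14 with the offset (adjusted p = 0.428). The list median was -0.04, and it was above 0 under upper-quartile scaling and library size alone (0.07 and 0.09).

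The kinases, adaptors and ubiquitin enzymes that act on BCL2 family proteins were mostly lower, with 10 of 16 called lower, 1 higher and a median of -0.48. Usp9x, a deubiquitinase that stabilises the MCL1 protein, fell (log2 -1.03, 71.3 ± 8.18 against 146 ± 14.4 CPM, edgeR adjusted p = 4.51e-05). Dynll2, a dynein light chain that binds BMF, fell by 0.90, the stress kinase Mapk9 by 0.59 and the adaptor Ywhae by 0.56 on the log2 scale. Dynll1, a dynein light chain that binds BIM, rose (log2 1.27, 48.2 ± 14.8 against 20.0 ± 1.10 CPM, adjusted p = 0.000695). With the offset 1 rose and 9 fell, where 20.9% of all genes were called higher and 24.1% lower. With library size alone 1 rose and 7 fell, where 31.1% of all genes were called higher and 19.5% lower. In the main comparison 1 of the lower calls ended when any cKO or either floxed heart was left out (log2 -0.73 to -0.86, edgeR adjusted p = 0.0520 to 0.0958). It also ended under upper-quartile scaling. Of 10 genes in the list of outer membrane partners, which also holds genes for proteins of other compartments, Fis1, a fission factor, rose (log2 0.89). The channel Vdac1 (-0.91), the permeability transition regulator Ppif (-0.75) and the fission enzyme Dnm1l (-0.64) fell. The list median was -0.01, or 0.11 and 0.12 under upper-quartile scaling and library size alone.

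**Figure D5:**
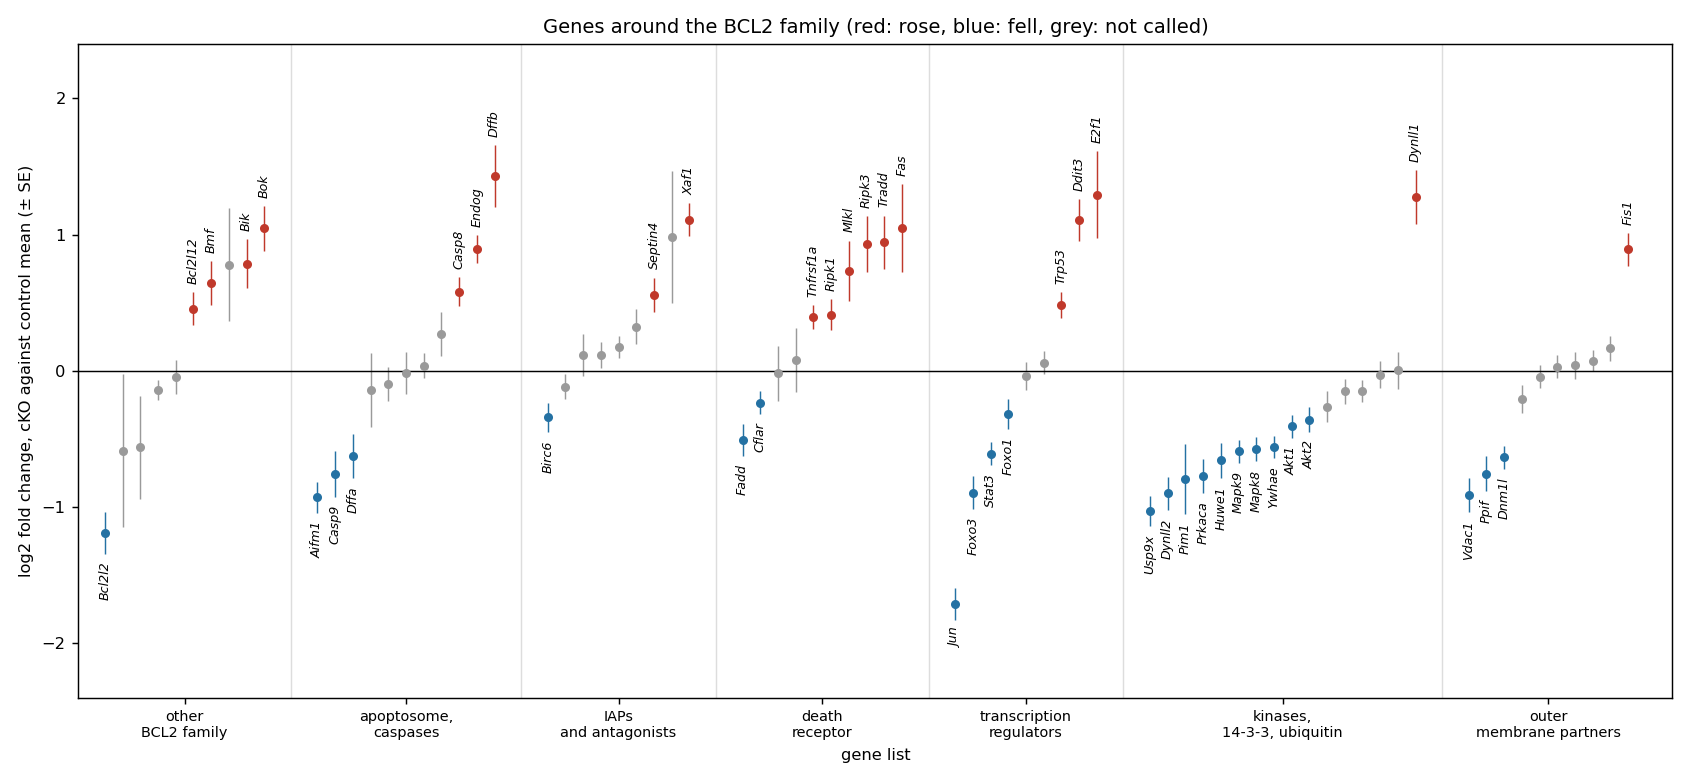
Log2 fold change (± SE) of cKO against the control mean for the tested genes of 7 pathway lists, in red for genes that rose, blue for those that fell and grey for those not called. Most coloured points are red in the death receptor list (6 of 8) and blue among the kinases, adaptors and ubiquitin enzymes (10 of 11).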

How the data were processed

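Per the labels' protocols, total RNA of male mouse hearts was isolated with TRIzol and libraries were prepared by the NEBNext Ultra kit. The authors deposited a table of estimated counts per gene (45706 Ensembl identifiers), in which 71.95% to 76.34% of the non-zero values of a library were whole within 1e-06. Per the submitters' processing notes STAR 2.5.1b, DESeq2 and the builds mm10 and GRCm38 were used. Counting program, annotation and strand setting were not stated there.

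Values were rounded, because the tests had been planned for whole counts, and 15289 genes passed edgeR's filterByExpr. All 8 libraries, grouped by genotype label, were fitted in edgeR 4.0.16 (R 4.3.3) with TMM scaling, 3 group means, robust quasi-likelihood and 5 residual degrees of freedom. Contrasts were called at a Benjamini-Hochberg adjusted p of 0.05. Symbols, positions and lengths came from GENCODE M21, promoters from RefSeq. CPM used TMM factors, and likeness log2 CPM with a prior count of 1.

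Alternatives were median-ratio, upper-quartile and library size scaling, DESeq2 1.42.0, limma 3.58.1 voom, no filter, a mean of at least 1 CPM, the fit without the robust option, both control groups as 1 group, fitting each pair of groups alone, the replicate number as a block, an absolute log2 fold change of at least 1, a length and GC offset (mgcv 1.9.3, 99.5% of tested genes), no rounding, and leaving out each library. Genes named were the members, Elmsan1, per list the 4 called genes of smallest p and any in a count of 5 or fewer, and the 3 genes most like Bax, Bcl2 and Mcl1. The members and lists were chosen with earlier results of these data known. A gene of the pathway lists is not reported here.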

Additional observations from a re-analysis of the deposited data

Results flagged for a closer look

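Bbc3 in cKO had 1 heart apart from the other 3. Replicate 4 was at 7.05 CPM and the others at 4.15 to 4.50 CPM, a gap to the nearest heart of 0.881 of the whole range, above Dixon's critical value for 4 samples. Septin4, a gene of the inhibitor of apoptosis list, had the same heart apart, at 48.0 CPM against 34.2 to 36.5 CPM, with a gap of 0.832 of the range. Such a gap was looked for in 54 genes, and chance alone gives it in about 1 group in 20. Without cKO replicate 4 the log2 fold change of Bbc3 was 0.58 (edgeR adjusted p = 0.0373) in place of 0.79. Across the 10 members, cKO replicate 4 had the highest cKO value for 5 and the lowest for 3.

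Jun differed between the control genotypes. The difference between the fold change of cKO against floxed (log2 -2.67) and that of cKO against Cre (log2 -0.76) was -1.91 on the log2 scale (edgeR adjusted p = 0.000622), with both floxed hearts above both Cre hearts.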

How the results depend on the processing

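The direction and call of Bax, Bad, Bcl2l11, Bcl2l13 and Mcl1 against the mean of the controls held under all 8 omissions of 1 library and the 12 other alternatives that gave a fold change. Of 10 members, 6 were called there, 5 to 7 when 1 library was left out and 3 with an absolute log2 fold change of at least 1. Against floxed 6 were called (5 to 6, and 2), against Cre 6 (3 to 6, and 3 with the length and GC offset), and between the control groups 0 (0 to 0). Of all genes, 7959, 6559 and 6484 were called in the comparisons with cKO, 6536 to 8209, 3600 to 7037 and 3929 to 6934 with 1 library left out, and 2074, 1956 and 1824 at the minimum fold. Between Cre and floxed 15 genes were called, 7 to 18 with 1 library left out, 57 with DESeq2, 31 with no filter, 32 with only those groups fitted and 84 with the replicate block. The cause of these moves was not tested, beyond the fewer samples in the omissions and the stricter threshold.

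Upper-quartile scaling and library size alone moved the median log2 fold change of all genes from 0.04 to 0.16 and 0.17, and the calls from 3909 higher and 4050 lower to 4873 and 3351, and 4753 and 2981. Bak1 was called higher under both (log2 0.38, edgeR adjusted p = 0.0145, and log2 0.39, adjusted p = 0.0239), with a mean of at least 1 CPM (log2 0.29, adjusted p = 0.0405) and with pooled controls (log2 0.26, adjusted p = 0.0495). With the length and GC offset Bak1 was at -0.06 on the log2 scale (edgeR adjusted p = 0.615). Bcl2l1 was called by DESeq2 (log2 0.60, adjusted p = 0.0248).

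Deviations of libraries with the same replicate number in their titles correlated at -0.11 to 0.13. With 2 hearts in each control group this check cannot decide whether samples were paired. The floxed libraries also carry other numbers in their library names than in their titles, so the title numbers may not match hearts across groups. With the replicate block 6372 genes and 5 members were called in the main comparison, and Bbc3 was not (log2 0.57, edgeR adjusted p = 0.0650). The block called 5 members and 34.9% of all genes against floxed, and 4 members and 34.6% of all genes against Cre. Of the pathway genes named, it also ended the calls of E2f1 (log2 0.88, adjusted p = 0.0683), Bcl2l12, Tnfrsf1a, Mlkl, Birc6 and Cflar (adjusted p = 0.0518 to 0.231). Floxed and Cre had 2 hearts each, Bid and Bbc3 had the fewest counts, and intervals from depth cover counting error only.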
